A study of Mus musculus with 8 samples.

Results

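The BCL2 family genes Bcl2, Bcl2l1, Mcl1, Bad, Bax, Bak1 and Bid were followed in mouse follicular B cells that did or did not meet their antigen. Members were taken as the array probe sets whose only platform gene symbol was one of these 7 names. Probe sets of 6 genes were found, out of 8252 genes with a probe set of 1 symbol in the whole series. The 6 genes had 10 probe sets, of which 9 were bright enough to be tested. No probe set carried Bax alone, so Bax is not analysed here. The untested probe set was a dim one of Bcl2l1, listed between 2.1 and 17.6 signal units on all 8 arrays.

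BCL2 family proteins decide at the mitochondrial outer membrane whether a cell keeps or releases cytochrome c, the step that starts the caspase cascade. BCL2, BCL-xL (the product of Bcl2l1) and MCL1 hold the effectors BAX and BAK in check, while BH3-only proteins such as BAD and BID oppose the pro-survival proteins or activate the effectors directly. B cells need MCL1 for their survival, and antigen receptor signals without T cell help can end in death by this pathway. The arrays measure RNA only, and these proteins are also regulated by phosphorylation, cleavage and rapid turnover.

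All cells carried an antigen receptor against hen egg lysozyme (HEL). In the IgMG cells it was a chimera of IgM with the IgG1 tail, and in the IgM cells it was an IgM. Cells were sorted as follicular and were either stimulated with HEL or left unstimulated, which gave HEL-stimulated IgMG, unstimulated IgMG, HEL-stimulated IgM and unstimulated IgM cells, with 2 arrays each. The sources used here do not give the time with HEL, the strain or the age of the mice. Each IgMG array pooled 5 to 8 mice and each IgM array 2 or 4, in 1 to 3 sorts, so receptor and number of mice pooled cannot be told apart. The labels do not say whether arrays shared mice, so p-values measure only the spread between these arrays.

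The 8 arrays had median signals between 40.5 and 47.7 units. Of 14 B cell markers, 13 had a probe set, and their summed signal was 53036 to 67911 on the IgMG arrays and 52323 to 61747 on the IgM arrays. A few very bright genes carry that sum, and single markers moved with HEL. In IgMG cells Cd79b fell and Blk rose, by -0.63 ± 0.14 and 0.69 ± 0.14 on the log2 scale (limma adjusted p = 0.0404 and 0.0297). In IgM cells Cd79b, Pax5, Cd22 and Ighd fell, by -1.01 ± 0.14, -1.02 ± 0.22, -0.98 ± 0.15 and -0.77 ± 0.17, and Blk rose by 0.69 ± 0.14 (adjusted p = 0.0028 to 0.0186). These falls are of the same order as those of the members below, and their part in the members' results was not tested. The 10 T cell markers with a probe set summed to 314 to 354 with HEL and 484 to 578 without it in IgMG cells, and to 226 to 264 with HEL and 250 to 261 without it in IgM cells. Cd3e was between 6.7 and 11.6 units on every array, while Zap70, the brightest T cell marker in unstimulated IgMG cells, had 102.9 and 134.3 with HEL and 356.8 and 328.6 without it in IgMG cells, and 79 and 10.5 with HEL and 94.7 and 88.2 without it in IgM cells. The 19 myeloid markers with a probe set summed to 7727 to 10110 in HEL-stimulated and 3556 to 18089 in unstimulated IgMG cells, against 2517 to 5875 in HEL-stimulated and 3766 to 5207 in unstimulated IgM cells. The 8 natural killer cell markers summed to 860 to 1018 and 556 to 3701 in the same IgMG groups, against 353 to 485 and 375 to 424 in the IgM groups. The highest values of both lists were on the second unstimulated IgMG array. Summed erythroid markers (6 with a probe set) lay between 12735 and 20199 on all arrays. The 5 plasma cell markers summed to 3435 to 3897 with HEL and 872 to 1372 without it in IgMG cells, and to 5921 to 6544 with HEL and 917 to 929 without it in IgM cells, with Irf4 giving most of the HEL-stimulated sums. The Gapdh 5'/3' signal ratio, a sign of RNA integrity, was 0.14 to 0.395 on the IgMG arrays and 0.259 to 0.755 on the IgM arrays, with the highest value on the second HEL-stimulated IgM array.

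Mcl1 was the brightest member and fell with HEL in IgM cells. Signals were 1239.5 and 1273.6 in HEL-stimulated IgMG cells, against 1563.7 and 1565.5 in unstimulated IgMG cells. In IgM cells they were 1171.7 and 977.8 with HEL, against 2063.6 and 2020.4 without it. Every HEL-stimulated array was below every unstimulated one, and the unstimulated IgM arrays were the highest of all. The log2 change in IgM cells was -0.92 ± 0.14 (SE), with a limma adjusted p = 0.00394 and a 95% interval of -1.24 to -0.6. In IgMG cells the change was -0.31 ± 0.14 with an adjusted p = 0.231, which did not pass the threshold of 0.05. The difference between the responses, IgMG minus IgM, was 0.61 ± 0.2, with an unadjusted p = 0.0134 and an adjusted p = 0.418 from limma. In bulk samples, fewer cells of a type and less RNA per cell cannot be told apart.

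**Figure D1:**
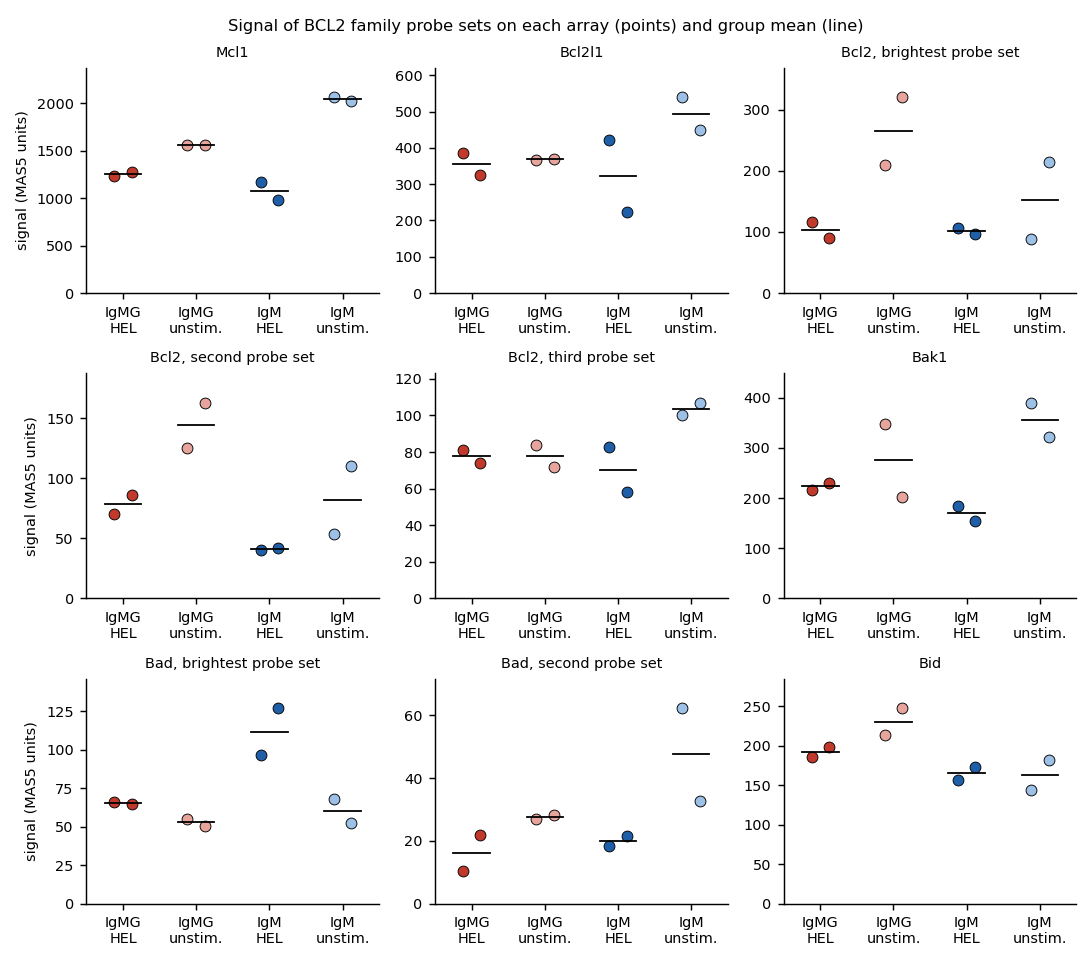
Signal in MAS5 units (y axis) of the 9 tested member probe sets on each array. Points are single arrays, lines are means of 2 arrays, and groups run from HEL-stimulated IgMG to unstimulated IgM cells. The 4 HEL-stimulated Mcl1 points lie between 977.8 and 1273.6, below the 4 unstimulated ones.

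Bcl2l1, which encodes BCL-xL, a pro-survival protein that activated lymphocytes are known to raise, passed the test with neither receptor. Its tested probe set had signals of 386.1 and 325.8 with HEL and 366.8 and 370.5 without it in IgMG cells. The IgM values were 421.1 and 223.8 with HEL and 539.4 and 448.8 without it. The IgMG groups overlapped, and the IgM groups did not, although the HEL-stimulated IgM arrays lay far apart. The log2 change was -0.05 ± 0.27 in IgMG cells (limma adjusted p = 0.939) and -0.65 ± 0.27 in IgM cells (adjusted p = 0.146). Without the first HEL-stimulated IgM array the change in IgM cells was -1.08 with an adjusted p = 0.0198, the 1 of 20 alternatives in which it passed. The intervals of -0.66 to 0.55 and -1.25 to -0.05 show how wide the range of sizes is that 2 arrays per group cannot tell apart.

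Bcl2, the founding member of the family and a pro-survival gene of resting lymphocytes, had 3 tested probe sets, which did not give 1 answer. The brightest had signals of 116.6 and 90.6 with HEL and 209 and 320.2 without it in IgMG cells, and 105.9 and 96.5 with HEL and 88.7 and 215 without it in IgM cells. All 4 HEL-stimulated arrays of this probe set lay close together, while the unstimulated ones were spread wide and overlapped them in IgM cells. Its log2 change was -1.21 ± 0.36 in IgMG cells (limma adjusted p = 0.086) and -0.41 ± 0.36 in IgM cells (adjusted p = 0.495). The second probe set had 70.1 and 86.3 with HEL and 125.1 and 162.9 without it in IgMG cells, and 39.8 and 42 with HEL and 53.5 and 109.8 without it in IgM cells. It was lower with HEL on both arrays of each receptor, by -0.76 ± 0.29 and -0.72 ± 0.29 on the log2 scale, neither of which passed in its own comparison. The third was between 58.3 and 107 units on all arrays, with log2 changes of 0 ± 0.22 in IgMG cells and -0.48 ± 0.22 in IgM cells (adjusted p = 0.997 and 0.179).

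Bak1, the effector that sits in the mitochondrial membrane, fell with HEL in IgM cells together with its inhibitor gene Mcl1. Signals were 216.3 and 230.9 with HEL and 347.6 and 202.2 without it in IgMG cells. IgM cells had 184.7 and 155.1 with HEL, against 390.2 and 321.8 without it. The IgM groups were apart, whereas the unstimulated IgMG arrays lay on either side of the stimulated ones. The log2 change in IgM cells was -1 ± 0.25 (interval -1.56 to -0.43, limma adjusted p = 0.0307), and in IgMG cells -0.23 ± 0.25 (adjusted p = 0.646). The call in IgM cells did not last in all alternatives: the change was -0.81 with an adjusted p = 0.115 once this Gapdh ratio entered the fit, and the adjusted p lay between 0.0606 and 0.179 when any 1 of the 4 IgM arrays or either HEL-stimulated IgMG array was left out. The part of RNA integrity in the Bak1 result was otherwise not tested.

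The promoters of Mcl1 and Bak1, called in IgM cells, and of Bcl2, with a probe set called in the mean response, are printed from RefSeq (GRCm38.p6), from 250 bases before to 50 after the start. Capitals mark motif matches on either strand. The Mcl1 window is chr3:95658471-95658770 (plus strand), that of Bak1 chr17:27028578-27028877 (minus strand) and that of Bcl2 chr1:106714241-106714540 (minus strand).
Mcl1: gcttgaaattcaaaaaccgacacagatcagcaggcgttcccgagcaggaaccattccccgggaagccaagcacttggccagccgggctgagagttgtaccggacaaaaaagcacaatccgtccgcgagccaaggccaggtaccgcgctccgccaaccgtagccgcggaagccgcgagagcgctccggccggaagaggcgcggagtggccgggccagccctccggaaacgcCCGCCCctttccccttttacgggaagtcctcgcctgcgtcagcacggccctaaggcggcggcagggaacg
Bak1: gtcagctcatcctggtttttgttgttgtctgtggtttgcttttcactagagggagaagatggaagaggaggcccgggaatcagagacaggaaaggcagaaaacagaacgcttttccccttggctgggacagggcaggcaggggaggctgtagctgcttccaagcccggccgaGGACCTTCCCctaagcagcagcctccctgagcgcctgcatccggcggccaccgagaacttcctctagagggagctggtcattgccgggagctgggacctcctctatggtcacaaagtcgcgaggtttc
Bcl2: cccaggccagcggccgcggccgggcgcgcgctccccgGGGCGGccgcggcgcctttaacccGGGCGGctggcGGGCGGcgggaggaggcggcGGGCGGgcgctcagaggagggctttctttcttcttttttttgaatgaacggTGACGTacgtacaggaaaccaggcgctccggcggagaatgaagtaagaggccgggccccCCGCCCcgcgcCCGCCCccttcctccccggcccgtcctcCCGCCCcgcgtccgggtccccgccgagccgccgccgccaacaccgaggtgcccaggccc
The motifs searched were those of NF-kB (GGGA, any 4 bases, CC), Egr (GCGNGGGCG), CRE (TGACGT), the GC box (GGGCGG), the E-box (CACGTG) and the CArG box. They were found in 20.7%, 5.55%, 7.51%, 35.7%, 7.15% and 1.63% of 32851 promoters of this length. The Mcl1 window held 1 GC box, 20 bases before the start, and 65.7% G and C. The Bak1 window held 1 NF-kB pattern, 78 bases before the start, and 58.3% G and C. The Bcl2 window was 76% G and C, and held 7 GC boxes and 1 CRE, 107 bases before the start. No match overlapped another motif. A match is a run of letters and not a shown binding site.

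Bad, a BH3-only gene whose protein is kept inactive by phosphorylation, had 2 tested probe sets that moved in opposite directions. The brighter had signals of 66 and 64.8 with HEL and 55.1 and 50.6 without it in IgMG cells, and 96.5 and 127.3 with HEL and 67.9 and 52.7 without it in IgM cells. Both HEL-stimulated IgM arrays were above all other arrays, and the groups did not overlap for either receptor. Its log2 changes were 0.24 ± 0.22 in IgMG cells and 0.74 ± 0.22 in IgM cells, with limma adjusted p-values of 0.583 and 0.0573. The dimmer probe set had 10.4 and 22 with HEL and 27 and 28.4 without it in IgMG cells, and 18.2 and 21.6 with HEL and 62.4 and 32.7 without it in IgM cells. It was lower with HEL, by -0.46 ± 0.34 and -0.79 ± 0.34 (adjusted p = 0.474 and 0.164). The direction of Bad therefore depended on the probe set read.

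Bid, the BH3-only gene whose protein caspase-8 cleaves to join the receptor and mitochondrial pathways, showed no called change. Signals were 185.5 and 199 with HEL and 213.7 and 248.2 without it in IgMG cells, and 156.7 and 173.6 with HEL and 143.7 and 182.3 without it in IgM cells. The stimulated IgMG arrays were lower than the unstimulated ones, and the IgM groups overlapped. Log2 changes were -0.24 ± 0.19 and 0.02 ± 0.19 (limma adjusted p = 0.504 and 0.951).

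Counted over genes by their brightest probe set, 0 of 6 members passed the test in IgMG cells, where 5.39% of all tested probe sets passed, and 2 of 6 fell in IgM cells, where 14% passed and 7.27% fell. Of all tested probe sets, 3.1% rose and 2.29% fell in IgMG cells. At an unadjusted limma p under 0.05, 2 of 9 member probe sets passed in IgMG cells, against 22.3% of all tested, and 6 of 9 in IgM cells, against 28.6%. Lower HEL values without overlap were found for 5 of 9 member probe sets in IgMG cells (29.4% of all tested) and for 6 of 9 in IgM cells (30.6% of all tested). Higher values without overlap were found for 1 of 9 with each receptor, the brighter Bad probe set, against 23.7% in IgMG cells and 27.6% in IgM cells. The median log2 change of the 9 was -0.24 in IgMG cells, beside -0.05 over all tested, and -0.65 in IgM cells, beside -0.02. For the mean of both HEL responses, Mcl1 fell by 0.62 ± 0.1 (limma adjusted p = 0.00326) and Bak1 fell by 0.62 ± 0.18 (adjusted p = 0.0382), so 2 of 6 genes fell, against 11% of probe sets, with 9.18% that rose and 20.2% that passed in either direction. At an unadjusted p under 0.05 there were 6 of 9 member probe sets, against 33.5%. Some of the 9 probe sets share a gene, and members were chosen with earlier results known, so these counts are no test of the family. The mean-response call of Bak1 held in 8 of 19 alternatives. The second Bcl2 probe set fell as well, by 0.74 ± 0.21 (limma adjusted p = 0.0364, held in 10 of 18 alternatives). The brightest had -0.81 ± 0.25 with an adjusted p = 0.0521. It passed in 5 of 19 alternatives, of which 1 averaged the 3 Bcl2 probe sets, at -0.6.

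**Figure D2:**
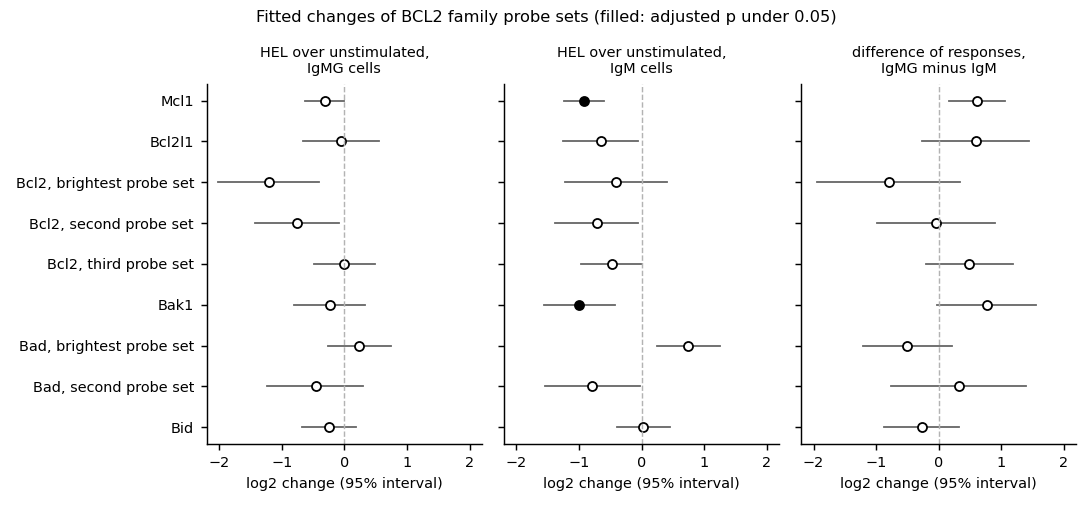
Fitted log2 change (x axis, with 95% intervals) of the 9 member probe sets for HEL over unstimulated IgMG cells, HEL over unstimulated IgM cells, and the difference of the responses, IgMG minus IgM. Filled points passed an adjusted p of 0.05, which holds for Mcl1 (-0.92) and Bak1 (-1) in IgM cells and for no point in the other panels.

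No member differed between the receptors past the threshold. In the difference of the HEL responses 0 of 6 members passed, and 0% of all probe sets did; at an unadjusted limma p under 0.05 there were 1 of 9 member probe sets and 10.1% of all. The differences were 0.77 ± 0.35 for Bak1, 0.6 ± 0.38 for Bcl2l1, -0.8 ± 0.5 for the brightest Bcl2 probe set, -0.5 ± 0.31 for the brighter Bad probe set and -0.27 ± 0.26 for Bid, with adjusted p-values between 0.485 and 0.744. Over the alternatives they ran from 0.28 to 1.13 for Bak1, 0.16 to 1.03 for Bcl2l1, -1.37 to -0.12 for Bcl2, -0.67 to -0.09 for Bad and -0.42 to -0.1 for Bid, and none passed. That Mcl1 and Bak1 passed in IgM cells and not in IgMG cells is thus no called difference between the receptors. In unstimulated cells 0 members passed, with 0% of all probe sets, and 4 of 9 member probe sets had an unadjusted p under 0.05 beside 4.62% of all. These 4 were Mcl1, lower in IgMG cells at -0.38 ± 0.14, and Bid at 0.47 ± 0.19 and Bcl2 at 0.82 ± 0.36 and 0.76 ± 0.29, higher in IgMG cells. Their limma adjusted p-values were 0.992 to 0.995. The Bcl2 values are of 1 gene, and members were chosen with earlier results known, so this count is no test of the family. The third Bcl2 probe set went the other way in unstimulated cells, at -0.35 ± 0.22 (adjusted p = 0.995). After HEL 0 members passed, beside 0.0134% of all, and 2 of 9 had an unadjusted p under 0.05 beside 13.9% of all. One was the second Bcl2 probe set at 0.72 ± 0.29, and the other the brighter Bad probe set at -0.64 ± 0.22. The T cell and natural killer sums given above were higher in IgMG cells with and without HEL, and the myeloid sums with HEL. In unstimulated cells the myeloid sums overlapped, at 3556 and 18089 in IgMG cells and 3766 and 5207 in IgM cells. The part of these sums in the receptor comparisons was not tested.

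The balance of the family was described per array as the mean centred log2 value of Bcl2, Bcl2l1 and Mcl1 minus that of Bad, Bak1 and Bid, each relative to unstimulated IgM cells. The pro-survival mean was -0.43 and -0.6 with HEL and -0.09 and 0.11 without it in IgMG cells, and -0.45 and -0.87 with HEL and -0.14 and 0.14 without it in IgM cells. It was lower on every stimulated array than on every unstimulated one. In IgMG cells Bcl2 moved most, with -0.23 and -0.54 with HEL against 0.53 and 1.11 without it. Mcl1 had -0.71 and -0.67 against -0.38 and -0.38, and Bcl2l1 overlapped, with -0.34 and -0.57 against -0.41 and -0.39. The pro-apoptotic mean stayed between -0.13 and 0.08 on all arrays, with the brighter Bad probe set higher and Bak1 lower with HEL in the group means of both receptors. The balance was -0.3 and -0.52 with HEL and -0.17 and 0.24 without it in IgMG cells, and -0.33 and -0.83 with HEL and -0.18 and 0.18 without it in IgM cells. The change of the balance with HEL was -0.45 in IgMG cells and -0.58 in IgM cells, with replicate SDs of 0.23 and 0.31. Without Bad it was -0.29 and -0.17, and over the mean of all probe sets of a gene it was -0.15 and -0.37, and in both forms stimulated and unstimulated arrays overlapped. Bax is not in this measure, and neither are the pro-survival Bcl2a1 copies. Their joint probe sets rose with HEL in IgM cells, by 2.64 ± 0.4 and 3.51 ± 0.38 on the log2 scale. No test was made of the balance.

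**Figure D3:**
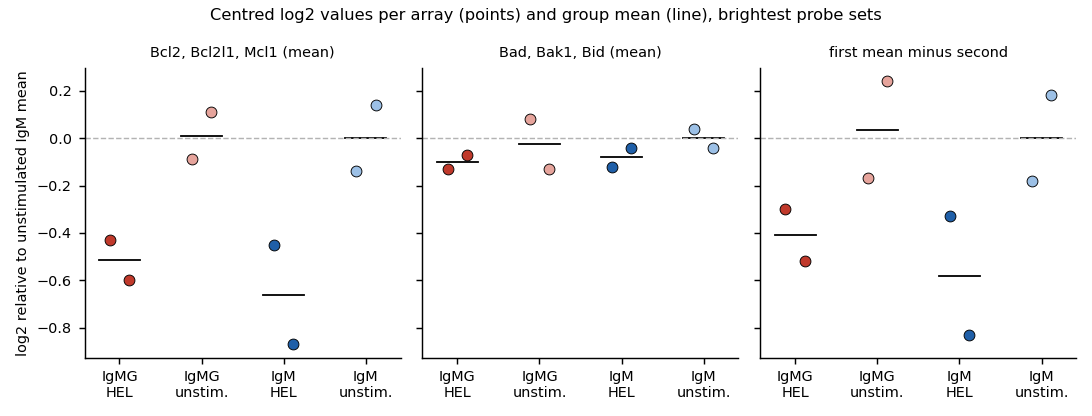
Mean centred log2 value (y axis, relative to unstimulated IgM cells) of the pro-survival members, of the pro-apoptotic members, and their difference. Points are single arrays and lines are means of 2 arrays. The pro-survival values of the 4 HEL-stimulated arrays lie between -0.87 and -0.43, and those of the unstimulated arrays between -0.14 and 0.14.

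A different pro-survival gene of the family rose with HEL. Bcl2a1 encodes A1, a short-lived pro-survival protein and a target of NF-kB, in several near-identical mouse copies that the array does not separate. A joint probe set of 3 Bcl2a1 symbols had signals of 635.5 and 284.7 with HEL and 128.2 and 239 without it in IgMG cells, and 550.2 and 657.4 with HEL and 61.5 and 110.5 without it in IgM cells. Another, of 5 symbols that include Mthfs, had 1351.2 and 750.9 with HEL and 189 and 376.2 without it in IgMG cells, and 1573.2 and 1765.7 with HEL and 97.9 and 176.8 without it in IgM cells. Stimulated and unstimulated arrays did not overlap for either probe set. In IgM cells they rose by 2.64 ± 0.4 and 3.51 ± 0.38 on the log2 scale (limma adjusted p = 0.0041 and 0.000793). In IgMG cells the joint probe set of 5 symbols rose by 1.85 ± 0.38 (adjusted p = 0.0281), and that of 3 symbols had 1.21 ± 0.4 (adjusted p = 0.123). The IgMG call was lost in 7 of 19 alternatives, while both IgM calls held in 19 of 19. The difference of the responses of the probe set of 5 symbols was -1.65 ± 0.53 with an adjusted p = 0.415. The second unstimulated IgMG array, highest in myeloid markers, also had the highest unstimulated values of both; myeloid cells express Bcl2a1 too, and their part was not tested.

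The wider apoptosis genes were read by lists. Of 6 other pro-survival genes, 2 were tested (Bcl2l2 and Bcl2l10), and Bok was the other effector. In limma 0 of these 3 passed for either receptor, beside 5.39% of all probe sets in IgMG cells and 14% in IgM cells. At an unadjusted limma p under 0.05 there were 0 of 3, beside 22.3% and 28.6%. With 3 genes, counts of 0 cannot be told from these shares. Of 14 BH3-only and BH3-like genes, 5 were tested. Bcl2l11, which encodes BIM, the BH3-only protein best known for B cell deletion, had 324.5 and 356.5 with HEL and 408.6 and 372 without it in IgMG cells, and 370.9 and 328.3 with HEL and 296.7 and 413.4 without it in IgM cells. Its groups overlapped in IgM cells, and its log2 changes were -0.19 ± 0.19 and -0.01 ± 0.19, neither called. Bbc3, Pmaip1 and Bmf, which encode PUMA, NOXA and BMF, had no probe set of their own. Bnip1, a BH3-like gene of endoplasmic reticulum transport, had 103.9 and 64.4 with HEL and 278.5 and 216.6 without it in IgMG cells, and fell there by 1.41 ± 0.28 (limma adjusted p = 0.0248, held in 14 of 19 alternatives). In IgM cells it had 102.4 and 137.5 with HEL and 291 and 192.9 without it, at -0.91 ± 0.28 (adjusted p = 0.061). Its mean response was -1.16 ± 0.2 (limma adjusted p = 0.00428, held in 18 of 18 alternatives). Bnip1 was the 1 of 5 called in IgMG cells, beside 5.39% of all probe sets. In IgM cells 0 of 5 were called, beside 14%.

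Of 26 apoptosome genes, caspases and caspase inhibitors, 16 were tested, and 5 fell and 0 rose with HEL in IgM cells, against 7.27% and 6.7% of all probe sets. In IgMG cells 0 of the 16 passed, where 5.39% of all probe sets did. An unadjusted limma p under 0.05 was found for 4 of 16 in IgMG cells (22.3% of all probe sets) and 7 of 16 in IgM cells (28.6%). The median log2 change was -0.09 in IgMG cells, beside -0.05 over all tested, and -0.45 in IgM cells, beside -0.02. Casp2, an initiator caspase, had 320.5 and 350.5 with HEL and 501 and 556.8 without it in IgMG cells, and 222.9 and 276.2 with HEL and 543.1 and 669.8 without it in IgM cells. It fell by 1.23 ± 0.18 in IgM cells (limma adjusted p = 0.00356), and its second probe set by 0.88 ± 0.2 (adjusted p = 0.0193). Casp8, the initiator of death receptor signalling, fell by 1.01 ± 0.23 in IgM cells (adjusted p = 0.0228). The inhibitor genes Birc2 and Birc3, which encode cIAP1 and cIAP2, fell by 0.67 ± 0.19 and 0.56 ± 0.15 (limma adjusted p = 0.0487 and 0.038). Their calls held in 4 and 7 of 19 alternatives, against 19 of 19 for Casp2 and 15 of 19 for Casp8, and the other Birc2 probe set had 0.73 ± 0.34. The inhibitor genes Xiap, Cflar and Birc5 had 0.75 ± 0.35, -0.27 ± 0.29 and -0.76 ± 0.54 in IgM cells, none called. Among these inhibitors, only Birc2 and Birc3 were called, and both fell. The positive values came from dim probe sets that were not called. In IgM cells Xiap had 33.3 and 53.1 units with HEL and 17.1 and 20.2 without it. The other Birc2 probe set had means of 49.35 with HEL and 23.1 without it (limma adjusted p = 0.197). Casp9, the apoptosome caspase, fell by 1.95 ± 0.34 on its brightest probe set (adjusted p = 0.00782), while its other probe sets had -0.1 ± 0.26 and 0.27 ± 0.32. In the mean response 5 of the 16 fell and 1 rose, against 11% and 9.18% of all probe sets. Casp2 had -0.93 ± 0.13 there and Casp8 -0.84 ± 0.16. Birc2 had -0.62 ± 0.13, Birc3 -0.49 ± 0.1 and the brightest Casp9 probe set -1.34 ± 0.24. These 5 had limma adjusted p-values of 0.00157 to 0.0125. Cycs, the gene of cytochrome c, rose in the mean response by 0.71 ± 0.18 (adjusted p = 0.0264, held in 12 of 18 alternatives). It did not pass in IgMG or IgM cells alone (adjusted p = 0.27 and 0.0551).

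**Figure D4:**
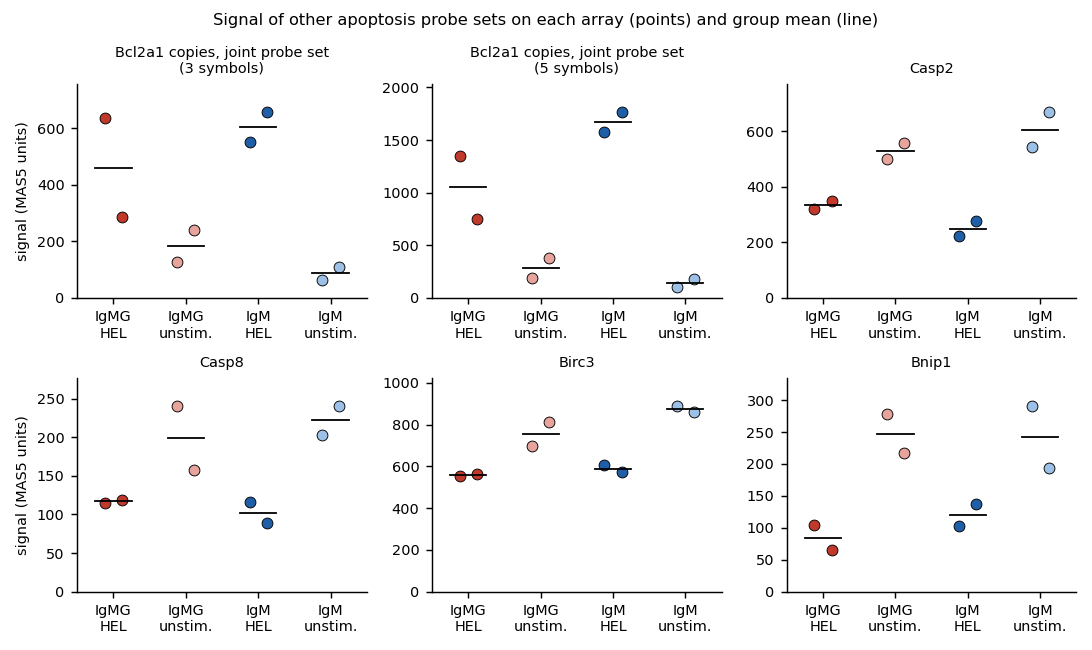
Signal in MAS5 units (y axis) of the joint Bcl2a1 probe sets and of Casp2, Casp8, Birc3 and Bnip1 on each array. Points are single arrays and lines are means of 2 arrays. The Bcl2a1 probe set of 3 symbols runs from 284.7 to 657.4 with HEL and from 61.5 to 239 without it. That of 5 symbols runs from 750.9 to 1765.7 with HEL and from 97.9 to 376.2 without it.

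Of 32 genes for partners and regulators of the member proteins, 24 were tested. At an unadjusted limma p under 0.05 there were 6 of 24 in IgMG cells (22.3% of all probe sets) and 4 of 24 in IgM cells (28.6%). After adjustment 0 passed in IgMG cells (5.39% of all), and in IgM cells 1 passed (14% of all): Ppp3ca, a catalytic subunit of calcineurin, which dephosphorylates BAD, fell by 0.71 ± 0.19 (limma adjusted p = 0.0376, held in 8 of 19 alternatives). In the mean response 2 of the 24 fell and 1 rose, against 11% and 9.18% of all probe sets. Pim1, a kinase of BAD, fell there by 0.67 ± 0.13 (limma adjusted p = 0.0078). Fbxw7, a ubiquitin ligase subunit that targets MCL1, fell by 0.63 ± 0.16 (adjusted p = 0.0248, held in 13 of 18 alternatives). Tpt1, whose protein binds MCL1, rose by 0.27 ± 0.08 (adjusted p = 0.0462), a call that held in 7 of 18 alternatives.

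Over the 8 arrays, the 3 genes most like Mcl1, Bak1, Bcl2 and Bcl2l1 were named by Pearson's r among 5602 genes, as a description, since arrays of a group share their treatment. Mcl1 was closest to H2az2 (0.989), Sptssa (0.976) and Klf3 (0.973). Bak1 was closest to Lat2 (0.982), Mtch1 (0.98) and Sfxn2 (0.979). For Bcl2 the genes were Zfp97 (0.947), Nup93 (0.939) and Dram2 (0.939), and for Bcl2l1 they were Creb3l1 (0.964), Ica1 (0.964) and Ets1 (0.95). Among the members themselves, Mcl1 was most like Bak1 (r = 0.88), and Bcl2 most like Bid (r = 0.76).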

How the data were processed

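The members and lists were chosen with earlier results of these data known. The authors deposited 1 linear intensity per probe set and array, made with MAS 5 per the submitters' processing notes. Detection calls were not used here. From 12488 probe sets, 66 controls were left out. Values were taken as log2(signal + 16), which understates changes of dim genes, and the brightest 60% by mean over 8 arrays (7453 of 12422) were tested with limma 3.58.1 in R 4.3.3. The fit had a coefficient per group and an intensity trend, with two-sided p-values adjusted by Benjamini-Hochberg over all tested probe sets at 0.05. It had 4 residual and 4.87 prior degrees of freedom. Errors beside log2 changes are standard errors. Precision is limited by having 2 arrays per group, since exact permutation of 2 against 2 gives no p below 0.333. A gene with several probe sets is counted by its brightest. All member probe sets were named, and of each wider list up to 6 genes past the threshold in any comparison, with Bcl2l11 and the Bcl2a1 copies in any case. Xiap, Cflar and Birc5 were added beside Birc2 and Birc3. Genes most like a member were the 3 with the highest Pearson r. The fit was also run on simulated data with independent normal errors and residual spreads shuffled over probe sets. Those data held no intensity trend of the spread and no effect shared within an array. The run therefore could not test how the fit handles these. Figures were drawn with matplotlib 3.10.9. Alternatives covered the offset, scaling, filter, trend, arrays in the fit, replicate block, Gapdh covariate, arrays left out and probe set averaging. Averaging leaves the values of a gene with 1 tested probe set, such as Mcl1 or Bak1, unchanged, so it could not test their calls.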

Additional observations from a re-analysis of the deposited data

How the results depend on the processing

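The number of members called with HEL in IgM cells was 2, and it was 1 when dim probe sets were kept, 1 with the Gapdh covariate, and 1 to 2 with each array left out in turn. In IgMG cells it was 0, and 0 to 1 with an array left out, where the brightest Bcl2 probe set passed without either unstimulated IgM array (limma adjusted p = 0.0442 and 0.0459). In the mean response it was 2, and it was 1 when dim probe sets were kept and 1 to 3 with an array left out. There Bak1 was lost and the brighter Bad probe set gained with median-centred arrays, quantile normalization and no trend (Bak1 at a limma adjusted p = 0.0534 to 0.0699). The brightest Bcl2 probe set was gained with an offset of 64 and the brightest 40% (limma adjusted p = 0.0473 and 0.0381). The average over the Bcl2 probe sets also passed (0.0455). The Gapdh covariate also added Bad, and Bcl2l1 passed without the first HEL-stimulated IgM array (0.0273). In the other comparisons it was 0 in every alternative. The Mcl1 call in IgM cells held in 20 of 20 alternatives (log2 change -1.05 to -0.79, limma adjusted p = 0.00276 to 0.0373) and that of Bak1 in 12 of 20. Over all probe sets, HEL calls in IgMG cells numbered 402, against 58 to 368 with an array left out, and those of IgM cells 1041, against 341 to 1278. With median-centred arrays, 282 rose and 107 fell in IgMG cells, beside 231 and 171 as deposited. Calls in IgM cells and in the mean response numbered 817 and 1274 when dim probe sets were kept. With the Gapdh covariate they numbered 603 and 1648, beside 1041 and 1505 in the main fit. Among the brightest 40%, 5 of the 6 members were tested, without Bad.

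The experiment numbers of the titles were tried as a replicate block, although deviations of same-numbered arrays correlated between -0.16 and 0.02. With the block, 0 members were called in IgMG cells and 2 in IgM cells, beside 273 and 869 of all tested probe sets. Mcl1 in IgM cells had a limma adjusted p = 0.00919. Crossed numbers, added after seeing the data, gave 0 calls between the unstimulated receptors.

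The balance change was -0.15 in IgMG cells over the mean of a gene's probe sets, and -0.17 in IgM cells without Bad, an alternative added after seeing the data. Of 1041 member values under alternatives, 29 had the other sign, 24 of them of changes smaller than their SE; the cause was not tested. Averaging the Bad probe sets gave -0.11 in IgMG cells, -0.02 in IgM cells and -0.07 in the mean response. With HEL, IgMG against IgM, the Gapdh covariate gave -0.04 for Bak1, -0.03 and -0.2 for the brightest and the third Bcl2 probe sets and -0.22 for Bcl2l1. The arrays that stand apart were the second HEL-stimulated IgM array, highest in Gapdh ratio, and the second unstimulated IgMG array, highest in myeloid markers. Leaving out both leaves a single array in each of their groups. Without both, the brightest and the third Bcl2 probe sets had -0.04 and -0.08 with HEL, IgMG against IgM, and Bcl2l1 had -0.24. Bid had -0.04 for HEL in IgM cells. For the difference of responses, the second Bcl2 probe set had 0.01 with an offset of 4, 0.04 with quantile normalization and 0.16 without both arrays. Bcl2l1 in IgMG cells had 0.02 with median-centred arrays. Bcl2l11 in IgM cells had 0.05 with median-centred arrays, 0.15 with the Gapdh covariate and 0.08 without both arrays, and Ppp3ca in IgMG cells had -0.11 with that covariate and -0.09 without both.

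Leaving out each array in turn also spanned 0 in several HEL responses. The range was -0.98 to 0.16 for the brightest Bcl2 probe set, -0.13 to 0.18 for Bid and -0.23 to 0.22 for Bcl2l11 in IgM cells. In IgMG cells it was -0.6 to 0.13 for Bak1, -0.17 to 0.06 for Bcl2l1 and -0.09 to 0.37 for Ppp3ca. In the mean response it was -0.21 to 0.02 for Bcl2l11. For the difference of responses it was -0.47 to 0.39 for the second Bcl2 probe set and -0.02 to 0.66 for the dimmer Bad probe set. For HEL-stimulated IgMG against IgM it was -0.14 to 0.18 and -0.08 to 0.33 for the brightest and the third Bcl2 probe sets, -0.24 to 0.63 for Bcl2l1 and -0.44 to 0.08 for the dimmer Bad probe set.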
